A study of Mus musculus with 20 samples.

Results

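The genes of elastic fibres and of the enzymes that cross-link them were followed in mouse heart, as a set of 10 named genes among the 49005 genes for which the deposited files hold exon counts. They were listed by name, with no threshold on a measured value, although earlier results of these data were known when the list was made. They comprise elastin (*Eln*), the microfibril genes *Fbn1*, *Mfap4* and *Mfap5*, the fibulins *Fbln1*, *Fbln2* and *Fbln5*, and the lysyl oxidase family members *Lox*, *Loxl1* and *Loxl2*. All 10 passed the expression filter, which kept 18069 genes. The samples came from hearts of wild-type C57BL/6 mice aged 12 weeks, and the 4 groups were high-fat females, high-fat males, chow females and chow males. The submitters' names for the high-fat libraries carry the letters PA. They were read as high fat by elimination, since the series names only chow and a high-fat diet. The fitted libraries numbered 5, 5, 5 and 4 in that order, because chow male 4 was counted per gene and could not be set beside the others. The labels do not say that libraries came from separate animals, so p-values measure the spread between these libraries, which may be technical. Nor do they give the length of the diet.

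Elastic fibres give vessel walls, valves and the cardiac interstitium their recoil. Elastin monomers are deposited on microfibrils built around fibrillin, fibulins bind both and help to assemble the fibre, and lysyl oxidases oxidise lysines of elastin and collagen so that the chains can be cross-linked. In the heart most of these genes are known from fibroblasts, vascular smooth muscle and valve cells rather than cardiomyocytes.

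In these libraries the enzyme genes *Loxl1* and *Loxl2* were higher in high-fat females than in chow females, and no gene of the set passed the test for diet in males. The counts of *Loxl2* lay almost wholly in its last 3 exons. The *Loxl2* call lay near the threshold, and a fit of the female groups alone called none of the 10. *Eln* was lower in females than in males on either diet. On the high-fat diet, *Lox* was also lower in females, whereas *Fbln1*, *Mfap4*, *Mfap5* and *Loxl1* were higher. Of these, the calls of *Mfap5* and *Loxl1* were lost in some of the alternative settings described below. The test of whether diet acted differently in the sexes called none of the 10.

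The label heart was checked against marker genes. *Tnnt2*, a sarcomere gene, stood at 11749 to 17242 CPM (counts scaled to a fixed library total) in all 19 libraries. Of 5 atrial markers, *Myl7* lay between 0.723 and 2.66 CPM, *Myl4* between 0.920 and 2.50 CPM and *Nppa* between 36.9 and 151.2 CPM, and *Sln* and *Bmp10* did not pass the filter. The deposited counts summed to between 57805110 and 85794067 per library over exon pieces, in which a read that spans several pieces counts in each. High-fat females 4 and 5 stood apart from the other 17 libraries. Their log2 levels rose with the GC content of genes by 0.54 and 0.82 per 10 percentage points, against -0.15 to 0.06 in the others, and the nuclear RNA *Malat1* was at 117.1 and 63.9 CPM, against 1132 to 1533 CPM. For diet in females and sex on high fat, the values of the 10 genes are therefore also given without these libraries, as are counts of the gene lists described below where they differed.

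Levels can be compared between genes only per length. On the exon piece of at least 300 bases with the most counts of each gene, chosen after the counts were seen, *Fbln2* was highest in all 4 groups. It stood at 15.9 ± 1.79 CPM per kilobase in high-fat females, 14.6 ± 1.31 in high-fat males, 12.9 ± 0.986 in chow females and 15.02 ± 1.44 in chow males (mean ± SD). *Fbn1* came second in each group, with its highest mean, 9.51 ± 0.764 CPM per kilobase, in high-fat males and its lowest, 8.40 ± 0.622, in chow females. *Lox* was lowest in all 4 groups, at 0.257 ± 0.112 CPM per kilobase in high-fat females, 0.552 ± 0.0797 in high-fat males, 0.333 ± 0.0495 in chow females and 0.584 ± 0.126 in chow males. With counts summed over all pieces and divided by their summed length, *Fbln1* took the first place, *Fbln2* the second and *Fbn1* the third, and *Lox* remained last. The order among the upper genes thus depends on how length is taken. The long piece of *Fbln1* is the last exon of only 1 of its 2 forms, and a read that crosses several pieces counts in each, but the part of either in the order was not tested. Values below are CPM summed over a gene's exon pieces, and compare 1 gene across libraries.

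**Figure D1:**
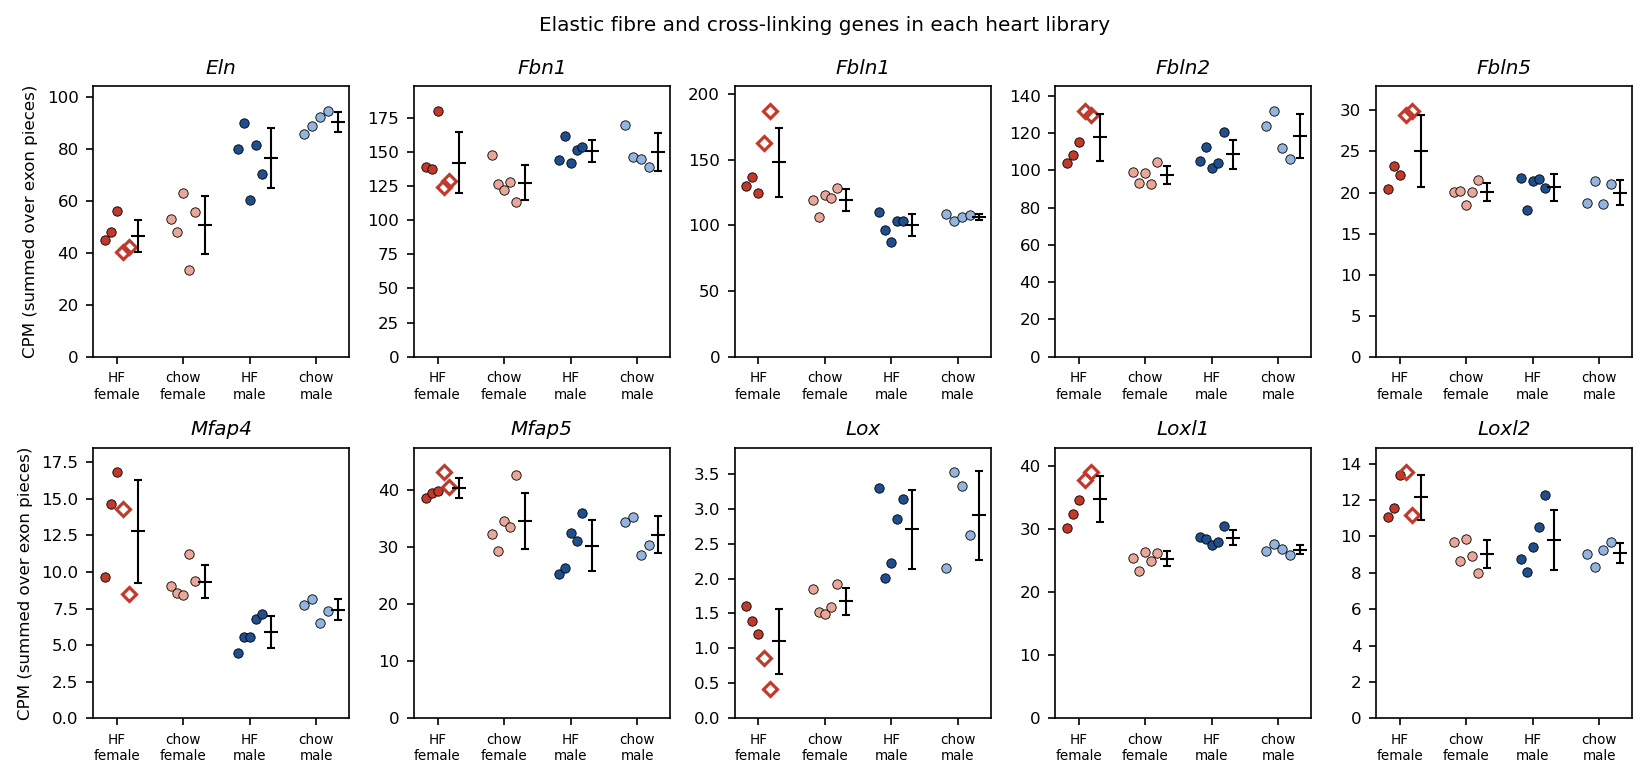
CPM of the 10 genes in each library, summed over exon pieces, for high-fat (HF) and chow females and high-fat and chow males (x axis). Circles are libraries, open diamonds are high-fat females 4 and 5, and bars give the mean ± SD of 5, 5, 5 and 4 libraries. *Eln* and *Lox* lie lower in females than in males, *Loxl1* lies highest in high-fat females, and each axis starts at 0.

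*Eln* encodes tropoelastin, the monomer of the elastic core, and lies at chr5:134702593-134747323 on the minus strand (GRCm38). *Eln* had 44.9, 48.05, 55.9, 40.1 and 42.3 CPM in high-fat females, against 53.1, 47.96, 62.9, 33.5 and 55.8 CPM in chow females. *Eln* in males was at 79.9, 89.9, 60.2, 81.6 and 70.1 CPM on high fat, against 85.8, 88.6, 92.1 and 94.7 CPM on chow. Every female library was below every male library of the same diet, and in each sex the diets overlapped. The mean was 46.3 ± 6.16 CPM in high-fat females, 76.3 ± 11.4 in high-fat males, 50.7 ± 10.99 in chow females and 90.3 ± 3.91 in chow males (SD, n = 5, 5, 5 and 4). The log2 change of females over males was -0.72 ± 0.14, adjusted p = 0.00353 on high fat and -0.83 ± 0.14, adjusted p = 0.00335 on chow (± SE, edgeR's quasi-likelihood test). On high fat it was -0.62 ± 0.14, adjusted p = 0.0101 without high-fat females 4 and 5. Diet gave -0.13 ± 0.14, adjusted p = 0.604 in females (-0.03 ± 0.14, adjusted p = 0.924 without those libraries) and -0.24 ± 0.14, adjusted p = 0.740 in males. The counts are bulk values, so fewer cells of a type and less RNA per cell cannot be told apart. None of 7 vascular smooth muscle markers was called between the sexes on either diet by edgeR or DESeq2, and 1 on each diet had an unadjusted p under 0.05 (*Mylk* on high fat, -0.12 ± 0.06, adjusted p = 0.166, and *Acta2* on chow, 0.42 ± 0.17, adjusted p = 0.207). Their summed level was 1726 to 2321 CPM in high-fat females, 1805 to 1963 in high-fat males, 1860 to 2133 in chow females and 1887 to 2018 in chow males. Most of that sum is *Des*, a gene that cardiomyocytes also express strongly, at 1337 to 1994 CPM over the 19 libraries. The other 6 markers summed to 327 to 438 CPM in high-fat females, 365 to 414 in high-fat males, 343 to 393 in chow females and 352 to 359 in chow males. The part of these cells in the *Eln* result was not tested. The predicted gene *Gm30003* overlaps *Eln*. Whether counting used strand is not stated, and reads of overlapping genes cannot be told apart.

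*Fbn1* encodes fibrillin-1, the main protein of the microfibril on which elastin is laid, and lies at chr2:125300594-125507993 on the minus strand. *Fbn1* had 139, 138, 180.2, 124 and 129 CPM in high-fat females, against 148, 127, 122, 128 and 113 CPM in chow females. *Fbn1* in males was at 144, 162, 142, 151 and 153 CPM on high fat, against 169.9, 146, 144 and 139 CPM on chow. The groups overlapped in each comparison, and high-fat female 3 stood above the other 4 of its group. No change was called: the log2 change was 0.16 ± 0.09, adjusted p = 0.357 with diet in females and 0.01 ± 0.10, adjusted p = 0.999 in males, and -0.08 ± 0.09, adjusted p = 0.544 for females over males on high fat and -0.23 ± 0.10, adjusted p = 0.215 on chow. Without high-fat females 4 and 5 it was 0.26 ± 0.09, adjusted p = 0.0976 with diet in females and turned sign for females over males on high fat, to 0.02 ± 0.09, adjusted p = 0.944. Its 95% interval for diet in males ran from -0.20 to 0.21.

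*Mfap4* encodes a microfibril-associated glycoprotein that binds fibrillin and tropoelastin, at chr11:61485431-61488900. *Mfap4* had 9.66, 14.6, 16.8, 14.3 and 8.52 CPM in high-fat females, against 9.07, 8.59, 8.39, 11.2 and 9.35 CPM in chow females. *Mfap4* in males was at 4.48, 5.55, 5.54, 6.77 and 7.13 CPM on high fat, against 7.72, 8.17, 6.51 and 7.32 CPM on chow. On high fat, each female library lay above each male library, and on chow the females likewise lay above the males by a smaller gap. The log2 change of females over males on high fat was 1.12 ± 0.17, adjusted p = 0.000506, a fold of 2.17, and 1.22 ± 0.15, adjusted p = 5.55e-05 without high-fat females 4 and 5. On chow it was 0.33 ± 0.18, adjusted p = 0.374. For diet it was 0.46 ± 0.16, adjusted p = 0.143 in females and -0.34 ± 0.18, adjusted p = 0.653 in males. Among females, high-fat libraries 2, 3 and 4 lay above all 5 chow females, and high-fat females 1 and 5 lay within their range. Leaving out high-fat females 4 and 5 brought the change in females to 0.56 ± 0.15, adjusted p = 0.0388. Of the 10 genes *Mfap4* also had the largest difference between the diet changes of the sexes, 0.79 ± 0.24, adjusted p = 0.320. *Mapk7* overlaps its 3′ end.

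*Mfap5* encodes MAGP-2, another small microfibril protein, at chr6:122505845-122529290. *Mfap5* had 38.6, 39.3, 39.7, 43.05 and 40.5 CPM in high-fat females, against 32.3, 29.3, 34.5, 33.5 and 42.5 CPM in chow females. *Mfap5* in males was at 25.2, 26.2, 32.5, 31.1 and 35.95 CPM on high fat, against 34.3, 35.2, 28.6 and 30.3 CPM on chow. High-fat females lay close together and above all high-fat males, whereas the chow groups overlapped. The log2 change of females over males was 0.42 ± 0.10, adjusted p = 0.0164 on high fat and 0.10 ± 0.11, adjusted p = 0.752 on chow. The high-fat value was 0.38 ± 0.11, adjusted p = 0.0353 without high-fat females 4 and 5. Its call ended when the largest exon piece alone was used, a piece of 1988 bases with few counts (-0.32, adjusted p = 0.249). It also ended when chow male 4, which is counted per gene, was joined (adjusted p = 0.108). Diet gave 0.23 ± 0.10, adjusted p = 0.240 in females (0.19 ± 0.11, adjusted p = 0.357 without those libraries) and -0.09 ± 0.11, adjusted p = 0.993 in males.

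*Fbln1* encodes fibulin-1, a secreted glycoprotein that binds fibronectin, elastic fibres and basement membranes, at chr15:85205949-85286535 on the plus strand. *Fbln1* had 129.9, 137, 125, 162 and 187 CPM in high-fat females, against 119, 106, 123, 121 and 128 CPM in chow females. *Fbln1* in males was at 110.3, 96.5, 87.7, 104 and 103 CPM on high fat, against 108, 103, 106 and 108 CPM on chow. High-fat females were above all high-fat males, with high-fat females 4 and 5 highest of all, and the chow groups overlapped. Females over males gave 0.56 ± 0.09, adjusted p = 0.00127 on high fat, 0.38 ± 0.06, adjusted p = 0.00102 without high-fat females 4 and 5, and 0.16 ± 0.10, adjusted p = 0.453 on chow. In females, the high-fat diet gave 0.31 ± 0.09, adjusted p = 0.0807, and 0.12 ± 0.06, adjusted p = 0.275 without those libraries. In males it gave -0.09 ± 0.10, adjusted p = 0.980.

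Counts along *Fbln1* also bear on its start. The first 56 bases of the annotated gene held 1 to 9 counts per library in high-fat females, 0 to 4 in high-fat males, 0 to 3 in chow females and 1 to 4 in chow males. The next piece, of 208 bases, held 231 to 351, 134 to 210, 206 to 237 and 188 to 244 counts in the same groups. RefSeq (GRCm38.p6) gives *Fbln1* a start at each of these pieces. The 250 bases before the first, chr15:85205699-85205948 on the plus strand, are shown because *Fbln1* differed between the sexes, although the piece that follows them held few counts. Their GC content is 46.4%, and the capitals mark the letters CACGTG, the E-box that clock factors are known to bind:

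Fbln1: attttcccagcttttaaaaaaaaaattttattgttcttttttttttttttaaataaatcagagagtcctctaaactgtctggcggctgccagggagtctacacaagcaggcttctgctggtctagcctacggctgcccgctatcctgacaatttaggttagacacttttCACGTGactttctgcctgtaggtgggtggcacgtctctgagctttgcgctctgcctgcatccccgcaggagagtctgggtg

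The E-box CACGTG was searched on both strands, and 6.02% of all 32851 RefSeq windows of this length hold it. The GC box of Sp1, GGGCGG, is in 32.7% of them and not in the sequence above. The TATA box, TATAAA, is in 12.4% and not in the sequence above either. The window before the second start, chr15:85205758-85206007, overlaps the first and also holds transcribed bases, so its letters are not shown. Its GC content is 62.4%, and it holds the same CACGTG and 1 GC box, with no TATA box. Windows on chromosome 18, which holds *Lox*, were left out when the set was searched, so *Lox* was not examined. Among the remaining genes of the set, 4 matched a RefSeq window (*Fbn1*, *Fbln1*, *Fbln2* and *Fbln5*), and CACGTG was found in the *Fbln1* windows only. The motif was looked for after the letters were seen, and a match describes the sequence and is not evidence of a site in use.

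*Fbln1* ends in 1 of 2 ways, by alternative last exons. The ratio of counts in the first piece used only by the longer form to those in the last exon of the shorter form was 0.670 ± 0.0493 in high-fat females, 0.666 ± 0.0788 in high-fat males, 0.680 ± 0.0635 in chow females and 0.683 ± 0.104 in chow males (SD). The 4 groups overlapped in this ratio.

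*Fbln2* encodes fibulin-2, known from vessel walls and valves, at chr6:91212455-91272540. *Fbln2* had 104, 108, 115, 132 and 129.7 CPM in high-fat females, against 98.8, 93.03, 98.4, 92.9 and 104 CPM in chow females. *Fbln2* in males was at 105, 112, 101, 104 and 120.3 CPM on high fat, against 124, 132, 112 and 106 CPM on chow. On chow every female was below every male, and on high fat the sexes overlapped. The log2 change of females over males was -0.28 ± 0.08, adjusted p = 0.0627 on chow and 0.12 ± 0.07, adjusted p = 0.283 on high fat. The chow value passed the threshold without high-fat females 4 and 5, which belong to neither group but bear on the shared estimate of spread, the normalisation and the filter (-0.28 ± 0.06, adjusted p = 0.00756). Diet gave 0.27 ± 0.07, adjusted p = 0.0587 in females, just short of the threshold, and -0.13 ± 0.08, adjusted p = 0.773 in males. Without high-fat females 4 and 5 diet in females gave 0.16 ± 0.07, adjusted p = 0.181, and females over males on high fat 0.00 ± 0.07, adjusted p = 0.976.

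*Fbln5* encodes fibulin-5, which binds tropoelastin and is required for elastic fibres in mice, at chr12:101746565-101819055. *Fbln5* had 20.4, 23.3, 22.2, 29.4 and 29.97 CPM in high-fat females, against 20.05, 20.2, 18.4, 20.1 and 21.6 CPM in chow females. *Fbln5* in males was at 21.8, 17.9, 21.4, 21.7 and 20.5 CPM on high fat, against 18.7, 21.4, 18.6 and 21.1 CPM on chow. All groups overlapped, and the only libraries above 25 CPM were high-fat females 4 and 5. The change with diet in females was 0.32 ± 0.10, adjusted p = 0.0824, and 0.13 ± 0.07, adjusted p = 0.346 without them. In males it was 0.05 ± 0.10, adjusted p = 0.999. Between the sexes it was 0.28 ± 0.10, adjusted p = 0.0709 on high fat (0.09 ± 0.07, adjusted p = 0.518 without high-fat females 4 and 5) and 0.01 ± 0.10, adjusted p = 0.988 on chow.

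*Lox* encodes lysyl oxidase, the founding enzyme of the family, at chr18:52516069-52529867 in the files. *Lox* had 1.61, 1.40, 1.21, 0.869 and 0.425 CPM in high-fat females, against 1.84, 1.51, 1.49, 1.60 and 1.92 CPM in chow females. *Lox* in males was at 3.29, 2.01, 2.23, 2.86 and 3.14 CPM on high fat, against 2.15, 3.52, 3.32 and 2.62 CPM on chow. Its counts were few, between 28 and 277 per library. Every female library was below every male library of the same diet, and the lowest values were those of high-fat females 4 and 5. The log2 change of females over males on high fat was -1.29 ± 0.25, adjusted p = 0.00421, and -0.95 ± 0.19, adjusted p = 0.00349 without these libraries. On chow it was -0.79 ± 0.26, adjusted p = 0.107, which passed the threshold once they were left out (-0.79 ± 0.16, adjusted p = 0.00405). Diet gave -0.60 ± 0.25, adjusted p = 0.208 in females, -0.26 ± 0.19 without high-fat females 4 and 5, and -0.10 ± 0.25, adjusted p = 0.999 in males. The annotated transcript *AC161119.1* overlaps *Lox*.

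*Loxl1* encodes lysyl oxidase-like 1, known in mice for the upkeep of elastic fibres, at chr9:58287738-58313186. *Loxl1* had 30.1, 32.4, 34.7, 37.8 and 39.1 CPM in high-fat females, against 25.4, 23.5, 26.4, 24.95 and 26.2 CPM in chow females. *Loxl1* in males was at 28.9, 28.5, 27.4, 27.9 and 30.5 CPM on high fat, against 26.5, 27.6, 26.9 and 25.9 CPM on chow. All 5 high-fat females stood above all 5 chow females, and in males the diets overlapped. The log2 change with diet in females was 0.46 ± 0.06, adjusted p = 0.00108, a fold of 1.38 with a 95% interval on the log2 scale of 0.33 to 0.59. It was 0.35 ± 0.06, adjusted p = 0.00140 without high-fat females 4 and 5. Fitted on the female groups alone it was 0.47 and did not pass (adjusted p = 0.0758). In males it was 0.10 ± 0.07, adjusted p = 0.816. On high fat, females over males gave 0.28 ± 0.06, adjusted p = 0.01003, although high-fat female 1 lay below the highest male. That value was 0.17 ± 0.06, adjusted p = 0.0546 without high-fat females 4 and 5, and with an offset for GC content it was 0.14, adjusted p = 0.133. On chow it was -0.08 ± 0.07, adjusted p = 0.633. At 61.0% *Loxl1* had the highest GC content of the 10 genes.

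*Loxl2* encodes lysyl oxidase-like 2, which acts on collagen IV and fibrillar collagens, at chr14:69609068-69695834 on the plus strand. *Loxl2* had 11.04, 11.5, 13.4, 13.5 and 11.2 CPM in high-fat females, against 9.69, 8.62, 9.83, 8.91 and 7.97 CPM in chow females. *Loxl2* in males was at 8.75, 8.03, 9.40, 10.5 and 12.3 CPM on high fat, against 9.04, 8.34, 9.22 and 9.67 CPM on chow. All high-fat females exceeded all chow females, and the other groups overlapped. The log2 change with diet in females was 0.43 ± 0.10, adjusted p = 0.0313, and 0.41 ± 0.11, adjusted p = 0.0365 without high-fat females 4 and 5. This call lay near the threshold: leaving out any 1 of chow females 2, 4 and 5 or high-fat females 3 and 4 ended it, with adjusted p between 0.0643 and 0.0769 and log2 changes between 0.39 and 0.43. It was also lost with no filter, with only the female groups, with the replicate block and GC offset together, with the largest piece and with chow male 4 joined. Over all 30 settings its log2 change lay between 0.39 and 0.46. In males diet gave 0.11 ± 0.11, adjusted p = 0.950. Females over males gave 0.31 ± 0.10, adjusted p = 0.0592 on high fat (0.29 ± 0.11, adjusted p = 0.0996 without high-fat females 4 and 5) and -0.01 ± 0.11, adjusted p = 0.985 on chow.

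The *Loxl2* value is almost wholly a count of the 3′ end of the gene. Over all libraries, 13042 counts (98.2%) lay in the 4 counted pieces of its last 3 exons, of 3037 bases, and 240 (1.81%) in the 12 pieces before them, of 2361 bases. Per library, the pieces before the last 3 exons held 17, 15, 17, 23 and 17 counts in high-fat females, 12, 12, 4, 4 and 11 in high-fat males, 23, 11, 14, 5 and 8 in chow females and 20, 8, 15 and 4 in chow males. The exons that encode the upstream part of the protein thus carried few counts in any group, and the diet difference above cannot be read there. The microRNA gene *Mir6950* lies within the covered end, and a piece of 7 bases shared with it was set aside. In *Loxl1*, by contrast, all 7 pieces were covered.

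**Figure D2:**
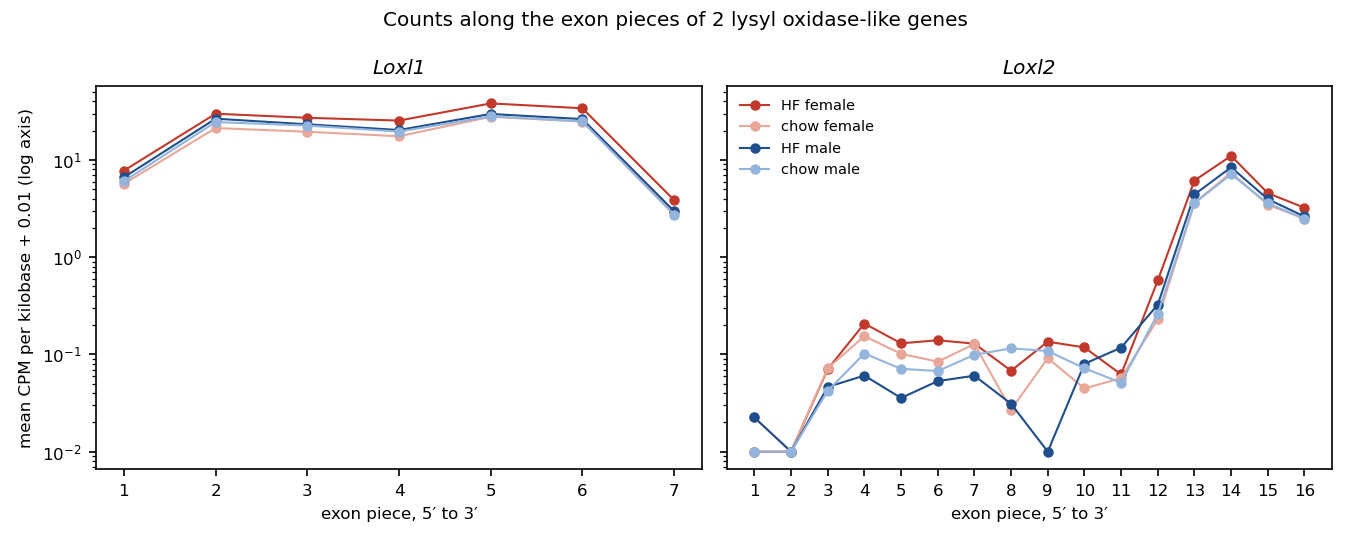
Mean CPM per kilobase (log axis, with 0.01 added) of each counted exon piece of *Loxl1* and *Loxl2*, from 5′ to 3′, in the 4 groups. The 7 pieces of *Loxl1* are all covered, whereas the first 12 of the 16 pieces of *Loxl2* hold 1.81% of its counts.

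For diet in females, 2 of the 10 genes were called higher and none lower, against 1.67% of the 18069 genes called higher. The same 2 genes, *Loxl1* and *Loxl2*, were those with all high-fat females above all chow females, against 2.62% of all genes. Without high-fat females 4 and 5, *Mfap4*, *Loxl1* and *Loxl2* were called higher, against 2.45% of all genes. An unadjusted p under 0.05 with a higher level was found for 7 of the 10, all but *Eln*, *Fbn1* and *Lox*, against 9.92%. The median log2 change of the set was 0.29, and 0.17 without high-fat females 4 and 5, whereas the median over all genes was -0.02 and 0.00.

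For diet in males, none of the 10 was called, against 0.764% of all genes called in either direction. None had an unadjusted p under 0.05, against 8.52% of all genes, and DESeq2 called none either. The log2 changes ran from -0.34 for *Mfap4* to 0.11 for *Loxl2*, with a median of -0.09. The 95% intervals of the fit of 19 libraries still allow changes such as -0.54 to 0.06 for *Eln*, -0.64 to 0.43 for *Lox* and -0.70 to 0.03 for *Mfap4*.

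The difference between these diet changes was tested by an interaction term, which shares all 4 groups with them. It called none of the 10 and 0% of all genes in edgeR, and DESeq2 called 49 genes, none of them in the set. Unadjusted p-values under 0.05 with a positive sign were found for 6 of the 10 (*Fbln1*, *Fbln2*, *Mfap4*, *Mfap5*, *Loxl1* and *Loxl2*), against 6.05% of all genes. Without high-fat females 4 and 5 they were 4 (*Fbln1*, *Fbln2*, *Mfap4* and *Loxl1*), against 5.62%. The log2 interaction was 0.36 ± 0.09, adjusted p = 0.234 for *Loxl1*, 0.40 ± 0.11, adjusted p = 0.277 for *Fbln2*, 0.40 ± 0.14, adjusted p = 0.362 for *Fbln1* and 0.32 ± 0.15, adjusted p = 0.483 for *Loxl2*. A diet change passed in females and not in males is therefore not shown to differ between the sexes.

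For sex on chow, *Eln* alone was called, lower in females, against 1.49% of all genes called lower. All chow females lay below all chow males in 3 genes, *Eln*, *Fbln2* and *Lox*, against 6.09% of all genes, and above them in *Mfap4*, against 5.66%. Without high-fat females 4 and 5, *Eln*, *Fbln2* and *Lox* were called lower, against 5.46%.

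For sex on high fat, 4 of the 10 were called higher in females (*Fbln1*, *Mfap4*, *Mfap5* and *Loxl1*), against 6.4% of all genes, and 2 lower (*Eln* and *Lox*), against 3.92%. The groups did not overlap in *Fbln1*, *Mfap4* and *Mfap5* on the higher side, against 4.8%, and in *Eln* and *Lox* on the lower side, against 5.22%. Without high-fat females 4 and 5, 3 remained higher (*Fbln1*, *Mfap4* and *Mfap5*), against 4.89%, and *Eln* and *Lox* lower, against 5.47%. The elastin gene and the founding oxidase were lower in females in a comparison in which 3 microfibril and fibulin genes were higher.

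**Figure D3:**
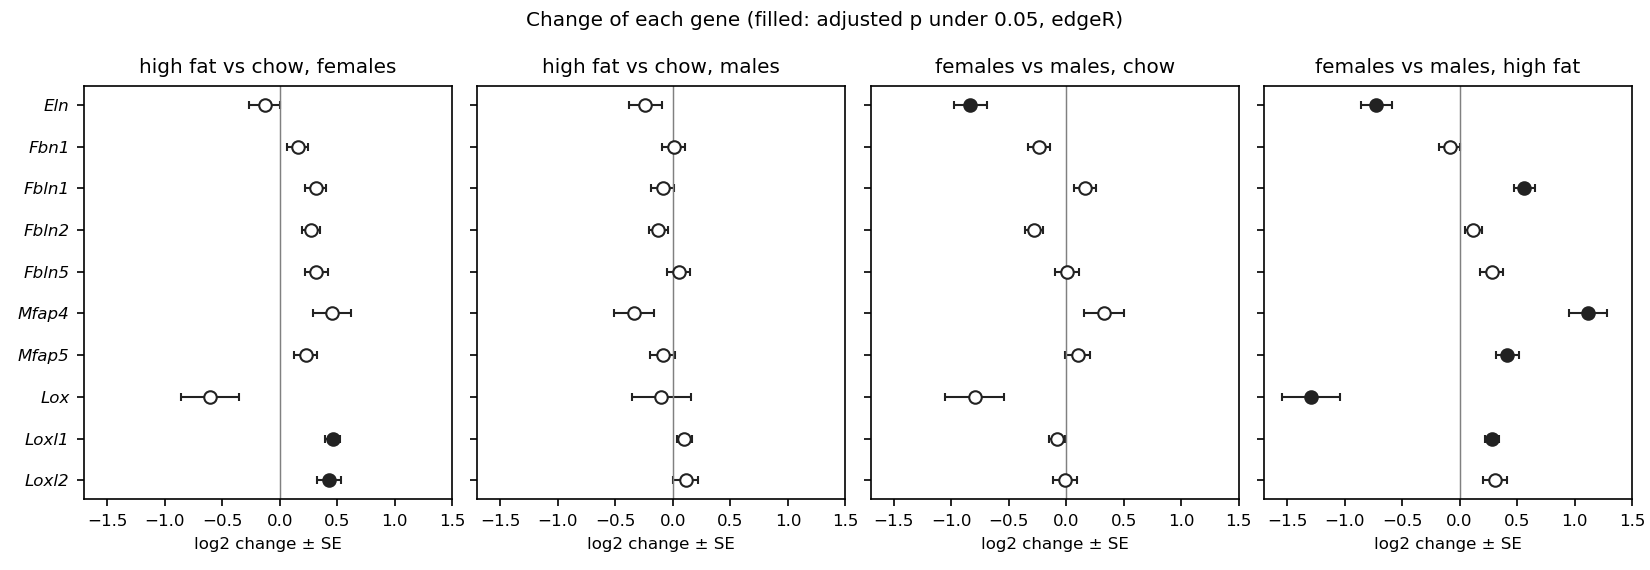
The log2 change ± SE of the 10 genes in the comparisons high fat over chow in females, high fat over chow in males, females over males on chow and females over males on high fat, from the edgeR model of 19 libraries. Filled points have an adjusted p under 0.05: 2 for diet in females, none for it in males, 1 for sex on chow and 6 on high fat.

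The labels do not give the hour of collection, and since clock genes differed between the sexes, sex and time of day cannot be told apart in these libraries. Of 12 genes of the cardiac clock, 6 were higher and 3 lower in females on each diet, and 7 and 4 without high-fat females 4 and 5. *Dbp*, a clock output gene, had a log2 change of females over males of 2.87 ± 0.19 on high fat and 3.36 ± 0.21 on chow (adjusted p = 2.43e-08 and 1.41e-08), and *Arntl*, which encodes a core activator, one of -2.04 ± 0.15 and -1.67 ± 0.15 (adjusted p = 1.4e-07 and 3.22e-06). The part of the clock in the sex differences of *Eln*, *Lox*, *Fbln1*, *Mfap4* and *Mfap5* was not tested.

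The departure of high-fat females 4 and 5 touched the 10 genes unequally. Against the mean of high-fat females 1 to 3, *Lox*, which has the lowest GC content of the set at 43.9%, lay at log2 differences of -0.68 in library 4 and -1.68 in library 5. *Loxl1*, with the highest, lay at 0.23 and 0.27, *Fbln1* (54.7%) at 0.32 and 0.52, and *Fbln2* (57.0%) at 0.28 and 0.25. *Fbln5*, at 46.9% GC, nevertheless lay at 0.42 and 0.45, and *Eln*, at 58.8%, at -0.30 and -0.22. *Mfap4* was at 0.10 in library 4 and -0.65 in library 5. The order of these shifts was not that of GC content, and the values for diet in females and sex on high fat without the libraries stand beside each gene above.

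**Figure D4:**
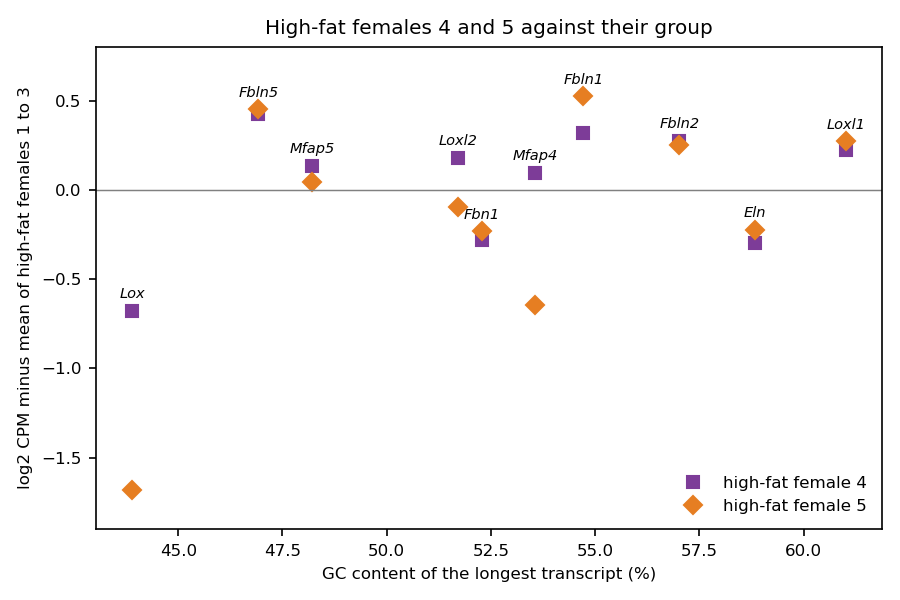
Difference in log2 CPM of high-fat females 4 (squares) and 5 (diamonds) from the mean of high-fat females 1 to 3 (y axis) against the GC content of each gene's transcript (x axis). *Lox* falls furthest, by 0.68 and 1.68, while *Fbln1*, *Fbln5*, *Fbln2*, *Loxl1* and, by the least, *Mfap5* lie above 0 in both libraries.

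Fibroblast markers were also called in several of these comparisons. For diet in females, 2 of 10 fibroblast markers were called higher, the collagen genes *Col1a1* (0.50 ± 0.07, adjusted p = 0.00108) and *Col1a2* (0.47 ± 0.06, adjusted p = 0.000447), and for sex on high fat 6 were higher and none lower, and 5 were without high-fat females 4 and 5. For sex on chow, where *Loxl1*, *Loxl2*, *Fbln1*, *Mfap4* and *Mfap5* were not called, 2 of the 10 markers were likewise higher in females and none lower. Those counts were the same without high-fat females 4 and 5. In males edgeR and DESeq2 called none for diet, and 2 had an unadjusted p under 0.05 (*Pi16*, -0.32 ± 0.09, adjusted p = 0.123, and *Lum*, 0.21 ± 0.10, adjusted p = 0.576). The summed fibroblast markers were at 2157 to 2967 CPM in high-fat females, 1932 to 2075 in high-fat males, 1965 to 2223 in chow females and 1854 to 2061 in chow males. Most of that sum is *Gsn*, at 1446 to 2235 CPM in high-fat females, and without high-fat females 4 and 5 the sum reached 2438 CPM in high-fat females. The other 9 markers summed to 711 to 815 CPM in high-fat females, 566 to 636 in high-fat males, 583 to 644 in chow females and 562 to 642 in chow males. On this sum the high-fat females lay above all other libraries, but most of it is *Col1a1* and *Col1a2*. In high-fat females these were at 169 to 219 and 278 to 322 CPM, against 129 to 157 and 207 to 244 CPM in the other groups. Not every marker moved this way: *Ddr2* was at 10.6 and 5.59 CPM in high-fat females 4 and 5, against 19.7 to 28.2 CPM in the other libraries. No marker of the list was at 0. Their part in the changes of *Loxl1*, *Loxl2*, *Fbln1*, *Mfap4* and *Mfap5* was not tested. Of 6 tested markers of valve and tendon-like tissue edgeR and DESeq2 called none in any comparison, with 1 at an unadjusted p under 0.05 in each of the 4 comparisons of diet or sex. Their sums of 16.9 to 21.5 CPM in high-fat females, 14.3 to 17.2 in high-fat males, 15.5 to 19.3 in chow females and 14.3 to 20.01 in chow males overlapped.

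Other genes of the elastic fibre and microfibril numbered 23, all tested. For diet in females 3 rose and none fell, *Emilin1* (0.38 ± 0.08, adjusted p = 0.0145), which encodes an elastic fibre interface protein, and the latent TGF-beta binding protein genes *Ltbp4* (0.24 ± 0.06, adjusted p = 0.0437) and *Ltbp3* (0.19 ± 0.05, adjusted p = 0.0484). The count was 1 without high-fat females 4 and 5. In males 1 fell, *Emilin2* (-0.37 ± 0.08, adjusted p = 0.0296). For sex on high fat 10 were higher in females and none lower, led by *Emilin2* (0.56 ± 0.07), *Ltbp4* (0.42 ± 0.06), *Emilin1* (0.48 ± 0.08) and *Ltbp3* (0.29 ± 0.05), and without those libraries 8 were higher and 1 lower. On chow edgeR called none and DESeq2 2, and 4 had an unadjusted p under 0.05 in edgeR, the smallest belonging to *Ltbp2* (-0.74 ± 0.22, adjusted p = 0.0787) and *Adamtsl5* (-0.15 ± 0.05, adjusted p = 0.102). Without those libraries 1 was higher and 2 lower. The list's median log2 change was 0.09 for diet in females and -0.01 in males, and 0.05 for sex on chow and 0.19 on high fat, against -0.02, 0.00, 0.01 and 0.01 over all genes.

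Of 24 tested genes that cross-link or process collagen and elastin, 5 rose with diet in females and none fell. They were the procollagen protease gene *Adamts2* (0.40 ± 0.07, adjusted p = 0.00432), the collagen chaperone genes *Fkbp10* (0.61 ± 0.11, adjusted p = 0.00612) and *Serpinh1* (0.37 ± 0.07, adjusted p = 0.0134), the collagen-binding *Sparc* (0.44 ± 0.08, adjusted p = 0.00920) and the protease enhancer gene *Pcolce*, and 4 of the list were higher without high-fat females 4 and 5. In males edgeR called none and DESeq2 1, and 3 had an unadjusted p under 0.05, the smallest belonging to *Fkbp10* (0.44 ± 0.11, adjusted p = 0.0986) and *Plod1* (-0.14 ± 0.06, adjusted p = 0.492). On chow 3 were lower in females, *Serpinh1* (-0.38 ± 0.08, adjusted p = 0.00984) and the prolyl hydroxylase subunit genes *P4ha1* (-0.43 ± 0.11, adjusted p = 0.0396) and *P4ha2* (-0.30 ± 0.08, adjusted p = 0.0427). On high fat 9 were higher in females and none lower, among them *Pcolce2* (0.56 ± 0.08), *Adamts2* (0.44 ± 0.07), *Pcolce* (0.45 ± 0.07) and *P3h3* (0.31 ± 0.07), and 5 were without high-fat females 4 and 5. *Loxl3*, a further member of the oxidase family, was among the 9. The interaction called none of this list in edgeR and 1 in DESeq2, and 7 had an unadjusted p under 0.05, the smallest belonging to *Serpinh1* (0.50 ± 0.11, adjusted p = 0.156) and *Adamts2* (0.34 ± 0.10, adjusted p = 0.291).

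Of 17 genes for enzymes that degrade elastin and matrix and for their inhibitors, 1 rose with diet in females, the gelatinase gene *Mmp2* (0.35 ± 0.07, adjusted p = 0.0183), and without high-fat females 4 and 5 the counts were 1 higher and 1 lower. With diet in males none was called by either tool, 3 having an unadjusted p under 0.05. On high fat 4 were higher in females, the elastolytic cathepsin gene *Ctsk* (0.64 ± 0.11), *Mmp2* (0.38 ± 0.07), the inhibitor gene *Timp2* (0.28 ± 0.06) and *Mmp15* (0.25 ± 0.06), and *Timp4*, another inhibitor gene, was lower (-0.90 ± 0.22, adjusted p = 0.0152), and without those libraries the counts were 4 higher and 3 lower. On chow neither tool called any, 3 had an unadjusted p under 0.05, and *Ctsk* had 0.36 ± 0.11, adjusted p = 0.101. Of 15 TGF-beta pathway genes, 1 rose with diet in females, the receptor gene *Tgfbr2* (0.27 ± 0.06, adjusted p = 0.0237), which was at 0.18 ± 0.05, adjusted p = 0.0543 without high-fat females 4 and 5. On high fat *Tgfb3* (0.25 ± 0.07, adjusted p = 0.0300), *Tgfbr2* (0.22 ± 0.06, adjusted p = 0.0304) and *Smad6* (0.30 ± 0.09, adjusted p = 0.0434) were called higher in females. Without those libraries none of the 3 was called, at 0.17 ± 0.07, adjusted p = 0.158 for *Tgfb3*, 0.12 ± 0.05, adjusted p = 0.143 for *Tgfbr2* and 0.21 ± 0.10, adjusted p = 0.176 for *Smad6*.

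Within groups the 10 genes moved together only in part. After group means were subtracted, the pair with the highest Pearson correlation of log2 CPM was *Fbln2* with *Loxl1*, at r = 0.73 over the 17 libraries without high-fat females 4 and 5 and 0.84 over 19. The lowest over 17 libraries was *Fbn1* with *Lox*, at -0.39. The genes outside the set whose levels followed the mean of the 10 most closely over 17 libraries were *BC037034* (r = 0.87), *Psenen* (0.85), *Pak1ip1* (0.83), *Mrpl55* (0.81) and *0610039K10Rik* (0.79). Over 19 libraries they were *Pak1ip1* (0.81), *Fuca2* (0.81), *Pla1a* (0.78), *Csrp2* (0.77) and *Pcolce* (0.76). These genes were picked as the highest r among all genes averaging 5 CPM or more, and whether such values exceed chance was not tested. The values describe libraries that share depth and composition, and *BC037034* fell to 0.37 over 19 libraries.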

How the data were processed

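Messenger RNA of hearts was sequenced after polyA selection, per the labels' protocols. The build GRCm39, DESeq2 1.32.0 and Salmon 1.5.1 are named in the submitters' processing notes. The deposited values are whole counts, and which program made them is not given in the sources used here. In 19 files the deposited counts are given per exon piece (425461 pieces), and in that of chow male 4 per gene. Pieces were summed per gene. Of 33309 pieces with joined gene IDs, 27829 went to 1 gene and 5480 were set aside, with 1.35% to 1.49% of counts. Symbols came from GENCODE vM21 (GRCm38), whose coordinates were those of the files for 44737 genes (90.7%), so coordinates are given in GRCm38. The start of *Lox* is the files' own.

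Genes were tested with the quasi-likelihood method of edgeR 4.0.16 (R 4.3.3), with TMM normalisation and filterByExpr, 1 model over 4 groups and 19 libraries, with Benjamini-Hochberg adjustment over 18069 genes and calls at an adjusted p under 0.05. Scripts were tested on simulated data. Alternatives were DESeq2 1.42.0, its size factors, no filter, a stricter filter (1 CPM in 5 libraries), a replicate block, a GC offset, both of these, fits of only the groups compared, no high-fat females 4 and 5, each library left out, the largest exon piece and chow male 4 joined. The 10 genes and the lists were chosen with earlier results of these data known. All 10 are named in every comparison, and of the other lists up to 4 called genes with the smallest p, or the 2 with the smallest p where none was called. Where the text names further genes or fewer, they were chosen after their values were seen. Genes of like pattern are the 5 with the highest r among those averaging 5 CPM or more. No 2 libraries held identical counts. Results of 1 gene of the TGF-beta list are not reported here.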

Additional observations from a re-analysis of the deposited data

Results flagged for a closer look

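Of the 40 sets of libraries formed by 10 genes and 4 groups, 1 held a library far from the rest. *Fbn1* in high-fat female 3 was at 180.2 CPM, against 139.1 CPM in the next library of that group, a gap of 0.734 of the group's range where 0.71 is the limit for 5 libraries (Dixon's test). Chance gives such a library in about 1 in 20 sets, so 1 in 40 is not unusual.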

How the results depend on the processing

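With other settings the number of the 10 genes called in either direction is given here with the share of all genes called in the same fit. For diet in females it was 2 and 2.53% in the report, 5 and 6.51% with DESeq2, 3 and 4.33% with the stricter filter, 3 and 4.95% without high-fat females 4 and 5, and 0 and 0.122% with only the groups compared. It was 1 with no filter (0.589%), with the replicate block and GC offset (0.969%), with the largest exon piece (1.15%) and with chow male 4 joined (0.396%). For sex on chow it was 1 and 3.22% in the report, and 3 with DESeq2 (5.17%), the GC offset (3.24%), only the groups compared (8.84%) or no high-fat females 4 and 5 (10.5%). It was 2 with the stricter filter (4.56%) or the replicate block and GC offset (2.51%). For sex on high fat, 6 and 10.3% in the report, it lay between 4, with the largest exon piece (7.1%) or chow male 4 joined (3.42%), and 7 with DESeq2 (14.4%). For diet in males and the interaction it was 0 in every setting run, and fitting only the groups compared is the same fit for the interaction. With single libraries left out, the counts ran from 1 to 5 for diet in females, where the share of all genes ran from 1.21% to 5.04%, 1 to 3 for sex on chow (1.42% to 4.76%) and 6 to 8 for sex on high fat (6.08% to 19.1%), and stayed at 0 for diet in males and the interaction. Of the 9 gene results called above, the calls of *Eln* on both diets and of *Fbln1*, *Mfap4* and *Lox* on high fat held in all 30 alternatives. Joining chow male 4 set a library counted per gene beside libraries counted per exon piece, so values with it mix units. The cause of these losses and gains was not tested.

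Same-numbered libraries of 2 groups deviated together with correlations of only -0.06 to 0.15. Pairing by replicate number was thus not evident, but such correlations cannot exclude it. The replicate block alone gave 2 calls with diet in females and 0 in males, 0 in the interaction, and 1 for sex on chow and 6 on high fat.

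Some small log2 changes that were not called turned sign. With the largest exon piece, *Eln* for diet in females was 0.18, and *Mfap5* was -0.091 with diet in females, 0.028 in males, -0.12 in the interaction, -0.20 between the sexes on chow and -0.32 on high fat, the last a call above. *Fbn1* for sex on high fat was 0.028 with that piece and 0.015 without high-fat females 4 and 5. The largest pieces of *Eln* and *Fbn1* held few of their counts, 23 to 109 and 16 to 45 per library. With chow male 4 joined, diet in males gave 0.038 for *Mfap5*, -0.0016 for *Loxl1* and -0.051 for *Loxl2*, and sex on chow -0.012 for *Fbln5*. With the replicate block and GC offset, diet in males gave -0.0016 for *Fbln5*, the interaction -0.031 for *Eln*, sex on chow -0.050 for *Fbln5* and sex on high fat -0.0081 for *Fbln2*. The GC offset alone gave -0.0082 for the last and -0.017 for *Fbln5* on chow, and the block alone -0.018 for *Fbln5* there. With 1 library left out, log2 ranges that crossed 0 were -0.0067 to 0.20 for *Eln* in the interaction, -0.022 to 0.044 for *Fbln5* and -0.048 to 0.030 for *Loxl2* on chow, and -0.028 to 0.071 for *Fbn1* and -0.22 to 0.0083 for *Lox* for diet in males. At 28 to 277 counts, *Lox* had the fewest counts of the 10 and the widest errors.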

Other observations

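Markers of other cells were also followed beside the 10 genes. Of 7 endothelial markers, 2 were higher in high-fat than in chow females, *Cdh5* (0.29 ± 0.05, adjusted p = 0.00944), a junction cadherin gene, and *Pecam1* (0.20 ± 0.04, adjusted p = 0.0195), while in males *Fabp4* rose (0.38 ± 0.07, adjusted p = 0.0127). Of 6 pericyte markers, 3 were higher in females than in males on high fat, *Cspg4* (0.54 ± 0.09, adjusted p = 0.00137), *Pdgfrb* (0.32 ± 0.08, adjusted p = 0.0220) and *Kcnj8* (0.24 ± 0.08, adjusted p = 0.0472), and 2 were without high-fat females 4 and 5. Only 4 of the 6 had a log2 change above 0. The summed pericyte markers went the other way, at 406 to 957 CPM in high-fat females and 922 to 998 CPM in high-fat males. Of 6 macrophage markers, *Cd68* was higher in females on high fat (0.61 ± 0.09, adjusted p = 0.000496). Of 3 tested atrial markers, *Nppa* was lower in high-fat than in chow females (-1.002 ± 0.23, adjusted p = 0.0266). The other 2 had log2 changes above 0 there and were not called. In males *Nppa* had -0.79 ± 0.24, adjusted p = 0.202. Of 7 cardiomyocyte markers, *Tnnt2* was lower in high-fat females (-0.31 ± 0.06, adjusted p = 0.0140), and 4 were without high-fat females 4 and 5. Of 4 Schwann cell markers, *Kcna1* was lower in females on high fat (-1.23 ± 0.31, adjusted p = 0.0203), and none was without high-fat females 4 and 5. Of 4 red cell markers edgeR called none for diet in females, where all 4 had an unadjusted p under 0.05 and DESeq2 called 3, and 4 were higher in edgeR once high-fat females 4 and 5 were left out. Adipocyte markers summed to 0.620 to 2.29 CPM in high-fat females, 0.277 to 0.844 in high-fat males, 0.380 to 1.53 in chow females and 0.265 to 0.818 in chow males.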
